A study of Mus musculus with 12 samples.

Results

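Germinal vesicle (GV) stage oocytes that had lost Dpagt1 through a Cre recombinase expressed in the oocyte (GcKO) were compared with wild-type (WT) oocytes across the transcriptome. The comparison takes 6 of the 12 libraries of the series, GcKO replicates 1, 2 and 3 and WT replicates 4, 5 and 6. It covers the 10491 of 24255 transcripts that reached 1 FPKM in at least 1 of these 6 libraries. FPKM are fragments per kilobase of transcript, after a scaling of each library that is not stated. Every library was made from 20 oocytes of C57BL/6 females aged 3 weeks, primed with 5 IU PMSG and killed 46 h later, and was amplified with Smart-seq2, a full-length cDNA method for very few cells. The GcKO females had the genotype Dpagt1F/F Gdf9CRE/+, in which the Gdf9 promoter drives Cre in oocytes of primordial follicles onward while the follicle cells keep Dpagt1. The WT females are labelled WT alone, with no floxed allele and no Cre named, so that effects of these and of the deletion cannot be told apart. The other 6 libraries, 3 from Dpagt1F/F Amhr2CRE/+ females with the deletion in granulosa cells (AmcKO) and 3 from D166G point mutants (MUT), served to show where the oocyte knockout differs from them. The labels do not say that libraries of a group came from different animals, so p-values measure the spread between these libraries, which may be technical.

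DPAGT1 is the enzyme of the ER membrane that starts the lipid-linked sugar precursor of N-glycans by adding N-acetylglucosamine phosphate to dolichol phosphate. The finished precursor is moved by the oligosaccharyltransferase to new glycoproteins, among them the zona pellucida proteins and the growth factors an oocyte secretes, and the attached glycan is read by calnexin, calreticulin and the degradation machinery of the ER. A fully grown oocyte is nearly silent in transcription. Its RNA is a store built up during growth, kept by RNA-binding proteins and used or degraded during meiotic maturation.

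The libraries are not on a common total, since the sum over transcripts was 1167362 to 1226005 in WT libraries and 482314, 612604 and 684212 in GcKO replicates 1, 2 and 3. Between 9359 and 9622 transcripts were above 0 in WT and between 10733 and 11608 in GcKO. The files hold no counts. Low values moved in whole-number steps in ratios between libraries (within 5% on the log2 scale, for at least 81.6% of the low transcripts compared), and by these steps 1 fragment was worth 2.53 to 2.95 in WT and 1.00 to 1.67 in GcKO libraries, relative to GcKO replicate 2. A value of 0 in WT is therefore a coarser floor than a value of 0 in GcKO, and the estimated number of fragments, 0.598 to 0.718 in WT and 0.652 to 1.00 in GcKO relative to the same library, bounds the precision of low transcripts. The targeted transcript itself, Dpagt1 (chromosome 9, 44326019 to 44333900, GRCm38), stood at 0 FPKM in each WT library and at 0.366 FPKM in GcKO replicate 2, with 0 in GcKO replicates 1 and 3 (exact permutation test, two-sided, p = 1.00, smallest possible 0.1). Its level carries no check of the deletion. Of 16 oocyte marker genes 15 were measured, whose sum was 38047 to 42377 FPKM in WT and 14715 to 21185 FPKM in GcKO. Of 18 granulosa and cumulus cell markers, 11 stayed under 1 FPKM in all 6 libraries and Amh, Amhr2, Foxl2, Inhba and Lhcgr were listed at 0. The sum of these 18 was 166 to 174 FPKM in WT and 63.7 to 108 FPKM in GcKO, mostly from Esr2 (145, 151 and 152 FPKM in the WT and 47.8, 59.1 and 78.4 FPKM in the GcKO libraries). Of the theca and stroma markers 9 of 10 were at 0, and their sum was 0.99 to 5.11 FPKM in WT and 0.655 to 2.75 FPKM in GcKO. Of the blood and endothelial markers 12 of 15 were at 0, and the sum was 30.99 to 54.2 FPKM in WT and 30.4 to 50.97 FPKM in GcKO, mostly from the complement gene C1qb (33.5, 51.2 and 26.6 FPKM in WT, 27.5, 45.8 and 26.7 FPKM in GcKO), with Pecam1 at 2.96 to 6.77 FPKM in these libraries. Of the tested members 4 of 15 oocyte markers fell and 2 rose (1 and 7 after quantile normalization), 1 of 7 granulosa markers, Esr2, fell, and none of 3 others was called.

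Between GcKO and WT oocytes, 2330 transcripts, 22.2% of those tested, were called changed by limma at an adjusted p under 0.05. Of these, 1312 (12.5%) were lower and 1018 (9.7%) higher in the knockout. The change exceeded 2-fold in 722 of the fallen and 666 of the risen transcripts. Over all transcripts the median log2 fold change was 0.13. In 36.1% of all transcripts the 3 GcKO values lay outside the range of the 3 WT values, below it in 17.1% and above it in 18.9%. The fallen transcripts were abundant, with a median of 132 FPKM in WT and 63.9 FPKM in GcKO oocytes. The risen ones were scarce, with medians of 3.001 FPKM and 8.26 FPKM. Of the 1049 transcripts with the highest mean level (the top 10%), 68.7% were called lower and 2.002% higher, against 3.34% lower and 18.1% higher of 1049 in the band from 3.90 to 6.54 FPKM. Transcript length went with the direction too, with a median of 1283 nt for the fallen and 2628 nt for the risen transcripts. Among transcripts of at least 10 FPKM, 36.7% of the 679 shortest were called lower and 5.01% higher, and 22.2% and 21.6% of the 677 longest.

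**Figure D1:**
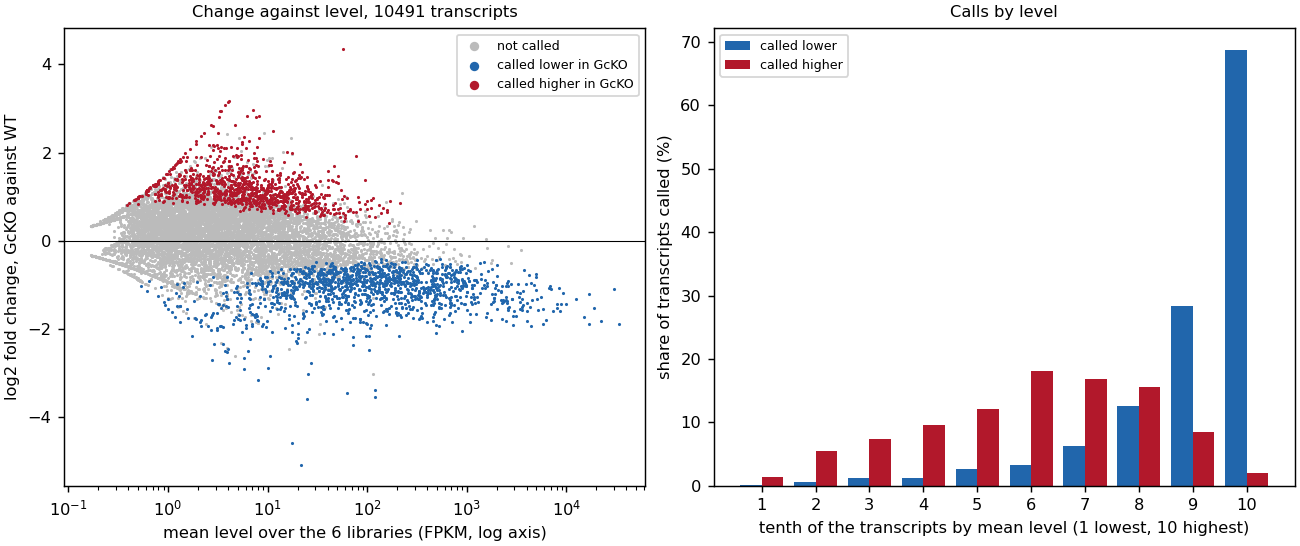
Left, log2 fold change of GcKO against WT on log2(FPKM + 1) for each of 10491 transcripts, against its mean level over the 6 libraries on a log axis, colored by the limma call. Right, the share of transcripts called lower and called higher in each of 10 equal groups by mean level, from the lowest (1) to the highest (10), in percent. The lower calls reach 68.7% in the highest group and the higher calls peak at 18.1% in group 6.

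The 3 GcKO libraries did not stand at the same distance from WT. The median fallen transcript was at 38.5% of its WT mean in GcKO replicate 1, at 47.5% in replicate 2 and at 55.7% in replicate 3. The risen transcripts above 0 in all WT libraries were at 281%, 222% and 199% of their WT mean. Replicate 1 also had the lowest FPKM sum. Without it 1417 transcripts were called (971 lower, 446 higher), more than 1.5 times fewer, and 948 of the 2330 calls were lost, against 327 to 612 when any other library was left out. Of the 2330 calls, 1285 (12.2% of all tested), 917 lower and 368 higher, passed in each of the 6 fits without 1 library. With only the 6 libraries in the fit 1090 were called lower and 504 higher. The scaling of the libraries moved the split between directions. When each library was scaled to the same FPKM sum, the median of all transcripts moved to 0.79, and 248 transcripts were called lower and 4816 higher. On that scale 247 of the 1312 fallen transcripts were still called lower, and all 1312 lay below the shifted median. Quantile normalization gave 706 lower and 744 higher calls, with 635 of the 1312 and 546 of the 1018 still called. Directions below are those of the values as deposited, tested against no difference between the groups and not against the other transcripts of a library. They depend on the scaling of the libraries and are not amounts per oocyte. Counts in gene groups are to be read beside 12.5% lower and 9.7% higher of all transcripts, and beside the shares by level given above. As these are bulk samples, less of a transcript per oocyte and fewer oocytes that hold it cannot be told apart.

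The largest falls among calls without overlap between groups were in Rpgrip1, which encodes a protein of the photoreceptor cilium (chromosome 14, 52110704 to 52163546). It was at 24.4, 57.7 and 46.5 FPKM in the WT and 0.1395, 0.565 and 0.00338 FPKM in the GcKO libraries (log2 fold change -5.09, SE 0.77, limma adjusted p = 5.4e-04). Slc24a5, a cation exchanger of pigment cells, was at 37.7, 4.78 and 62.7 FPKM in WT and listed at 0 in the 3 GcKO libraries (no longer called without GcKO replicates 1, 2 and 3 and WT replicates 4 and 6, with limma adjusted p = 0.0623 to 0.10). Its neighbor Myef2 on chromosome 2 fell as well, from 164, 195 and 154 FPKM in WT to 35.4, 40.7 and 35.2 FPKM in GcKO (log2 fold change -2.17, SE 0.18, limma adjusted p = 2.3e-05). The groups did not overlap for any of these, and the WT values of Slc24a5 ranged most widely. Several vomeronasal receptor transcripts, of the organ that senses pheromones, fell as far. Vmn1r157 was at 236, 224 and 207 FPKM in the WT and 11.3, 26.3 and 19.5 FPKM in the GcKO libraries (log2 fold change -3.55, SE 0.27, limma adjusted p = 1.5e-05), and Vmn1r112 at 218, 235 and 198 FPKM in the WT and 12.4, 22.4 and 27.6 FPKM in the GcKO libraries (log2 fold change -3.39, SE 0.25, limma adjusted p = 1.5e-05). Vmn1r139, Vmn1r132 and Vmn1r62 fell too (log2 fold change -3.45, -3.02 and -1.51). Of 18 Vmn1r transcripts tested 5 were called lower and 0 higher (median -0.61), and of 57 olfactory receptor transcripts 8 lower and 1 higher (median -0.51). These families were taken up after their values were seen, and their near-identical copies share reads, so single members are uncertain. Olfr288 was the olfactory receptor that rose (1.58). Olfr878 fell most, from 35.4, 44.5 and 60.7 to 2.43, 3.81 and 2.54 FPKM (log2 fold change -3.59, SE 0.52, limma adjusted p = 4.0e-04). The other falls of this size were in Gm19299 (-3.15), Gm6902 (-2.90), Gm20319 (4.97, 6.32 and 5.32 FPKM in WT and listed at 0 in GcKO), 3110009E18Rik (-2.78, no longer called without GcKO replicates 2 and 3 and WT replicates 4, 5 and 6, with limma adjusted p = 0.0551 to 0.15) and Srp54c (-2.77, no longer called without GcKO replicates 1, 2 and 3 and WT replicates 4 and 6, with limma adjusted p = 0.0553 to 0.0902).

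Among the transcripts with a mean of at least 100 FPKM, the largest falls after the vomeronasal receptors were in Cox17, which carries copper to cytochrome c oxidase, Myef2, Cd7 and 2610305D13Rik. Cox17 was at 174, 113 and 240.1 FPKM in the WT and 30.2, 14.8 and 55.7 FPKM in the GcKO libraries (log2 fold change -2.48, SE 0.41, limma adjusted p = 8.7e-04). The libraries of Cox17 spread over a wide range within each group but did not overlap. Paip1, which binds the poly(A)-binding protein and stimulates translation, was at 1604, 1371 and 1317 FPKM in the WT and 274, 389 and 387 FPKM in the GcKO libraries (log2 fold change -2.04, SE 0.17, limma adjusted p = 2.3e-05). That is 24.5% of the WT mean. Calm2, one of the calmodulin genes and among the most abundant transcripts of the oocyte, was at 7059, 6779 and 6858 FPKM in the WT and 1380.3, 1742 and 2425 FPKM in the GcKO libraries (log2 fold change -1.94, SE 0.21, limma adjusted p = 9.4e-05). Mei4, needed for the DNA breaks of meiotic recombination, fell by 1.97 on the log2 scale (limma adjusted p = 3.3e-04), and the meiotic chromosome protein Tex12, named after its values were seen, by 1.91 (limma adjusted p = 1.2e-04). Ptges3, a cochaperone of HSP90 also named after its values were seen, was at 807, 807 and 717 FPKM in the WT and 186, 209.6 and 219.9 FPKM in the GcKO libraries (log2 fold change -1.92, SE 0.16, limma adjusted p = 2.3e-05). In each of these the 3 GcKO values lay below every WT value, and all stayed called after quantile normalization.

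The largest rises were mostly in transcripts that WT oocytes barely held. Tceal8, of the transcription elongation factor A-like family, was at 18.1, 6.23 and 0 FPKM in the WT and 87.6, 92.2 and 140.1 FPKM in the GcKO libraries (log2 fold change 4.35, SE 0.84, limma adjusted p = 0.0024), and it was the only called member of the 3 Bex and Tceal transcripts tested. The WT libraries differed strongly for Tceal8, from 0 to 18.1 FPKM, and none reached the lowest GcKO value. Spesp1, which encodes a protein of the sperm equatorial segment, was listed at 0 in WT and at 8.66, 10.1 and 5.83 FPKM in GcKO libraries (limma adjusted p = 4.6e-05). It stood high in the AmcKO libraries too, as given below. Others listed at 0 in all 3 WT libraries were the histone transcripts Hist1h3h (5.88, 8.54 and 9.54 FPKM in GcKO) and Hist2h2bb (5.75, 5.56 and 9.32 FPKM, no longer called without GcKO replicate 3, with limma adjusted p = 0.0512). Tmsb4x for an actin-binding thymosin (6.402, 6.09 and 7.64 FPKM), Dapk2 for a death-associated kinase (6.38, 6.38 and 3.32 FPKM) and Ins2 (3.48, 10.2 and 5.68 FPKM, no longer called without GcKO replicate 2 and WT replicates 4 and 6, with limma adjusted p = 0.0524 to 0.0726) were at 0 in WT too. No fold is given for them, since 1 fragment weighs more in WT. In all, 76 of the 1018 risen transcripts were listed at 0 in every WT library. Smim1, Fxyd6, Ormdl2, Fkbp3 and 1110065P20Rik completed the list of the 12 largest, all with at least 1 WT library at 0 and GcKO values of 3.86 to 21.3 FPKM (1110065P20Rik no longer called without GcKO replicate 2 and WT replicates 4 and 5, with limma adjusted p = 0.0515 to 0.0687). At 100 FPKM and more, rises were smaller. Mtus1, a microtubule-associated protein gene, went from 69.4, 74.5 and 87.8 FPKM in WT to 169, 151 and 135 FPKM in GcKO (log2 fold change 0.97, SE 0.15, limma adjusted p = 5.3e-04). Tbc1d15 rose by 0.74 on the log2 scale. Fam46c rose by 0.85 (no longer called without GcKO replicate 1, with limma adjusted p = 0.0546). Rbpms2 (rise of 0.91), for an RNA-binding protein, was no longer called without GcKO replicates 1 and 2 and WT replicates 5 and 6, with limma adjusted p = 0.0636 to 0.0923. Gja4 (0.80), for the connexin between oocyte and granulosa cells, was no longer called once any 1 of the 6 libraries was left out, limma adjusted p = 0.0572 to 0.19. Zar1 (0.70), for a factor that holds maternal mRNA, was no longer called without GcKO replicate 2 and WT replicates 4 and 5, with limma adjusted p = 0.0648 to 0.11. Phospho2 (0.75) was no longer called without GcKO replicates 1 and 2 and WT replicates 4, 5 and 6, with limma adjusted p = 0.0533 to 0.11. 1700021F07Rik (0.64) was no longer called without GcKO replicates 2 and 3 and WT replicates 4, 5 and 6, with limma adjusted p = 0.0662 to 0.17, and Rps25 (0.55) was no longer called without GcKO replicates 1 and 3 and WT replicates 4 and 5, with limma adjusted p = 0.0544 to 0.11.

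Of 38 transcripts of the N-glycan precursor pathway tested, 5 (13.2%) were lower and 2 (5.26%) higher, against 12.5% and 9.7% of all transcripts, with a median of 0.09 against 0.13 for all transcripts. Among the first cytosolic steps, the role of DPAGT1 itself, Alg13, whose product works with ALG14 in the step right after it, was at 159, 166 and 147 FPKM in the WT and 89.01, 93.3 and 129.7 FPKM in the GcKO libraries (log2 fold change -0.61, SE 0.17, limma adjusted p = 0.0171, no longer called without GcKO replicates 1 and 2, with limma adjusted p = 0.0585 to 0.0627). Alg11, a cytosolic mannosyltransferase gene, was at 14.01, 10.2 and 11.02 FPKM in the WT and 4.65, 4.21 and 8.29 FPKM in the GcKO libraries (log2 fold change -0.96, SE 0.28, limma adjusted p = 0.0234, no longer called without GcKO replicates 1 and 2 and WT replicate 4, with limma adjusted p = 0.0759 to 0.0878). Alg14 was at 4.87, 10.99 and 28.1 FPKM in WT and 8.001, 7.55 and 6.304 FPKM in GcKO and did not pass. In both called members GcKO replicate 3 came closest to WT, and for Alg13 it reached 130 FPKM. Alg10b, which adds the terminal glucose, rose from 4.53, 3.58 and 0.879 to 13.9, 9.54 and 7.799 FPKM (log2 fold change 1.62, SE 0.38, limma adjusted p = 0.0074, no longer called without GcKO replicate 1, with limma adjusted p = 0.0511). Dpm2, a subunit of the dolichol-phosphate mannose synthase, fell from 169, 172 and 159 to 88.8, 83.9 and 129.8 FPKM (log2 fold change -0.75, SE 0.18, limma adjusted p = 0.0084), whereas its catalytic partner Dpm1 was near the floor (3.85, 1.74 and 5.23 FPKM in WT, 1.27, 0.592 and 2.47 FPKM in GcKO). Gnpnat1, of the route to UDP-N-acetylglucosamine, the donor DPAGT1 uses, fell from 90.3, 92.004 and 71.5 to 31.1, 48.4 and 42.7 FPKM (log2 fold change -1.05, SE 0.20, limma adjusted p = 0.0020). None of the 4 dolichol supply transcripts was called (Nus1, 0.41). On the same-sum scale the sign turned for Alg13 (0.42) and Dpm2 (0.28). The quantile-normalized fit no longer called Alg13 and Dpm2 (limma adjusted p = 0.45 to 0.90).

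Of the 12 oligosaccharyltransferase transcripts, which encode the complex that moves the finished glycan, 1 (8.33%) fell and 1 (8.33%) rose. Of all transcripts 12.5% fell and 9.7% rose, so these counts do not exceed the background. Dad1, a small subunit, was at 1446, 1739.5 and 1835 FPKM in the WT and 528, 687 and 810.1 FPKM in the GcKO libraries (log2 fold change -1.32, SE 0.19, limma adjusted p = 4.0e-04). Stt3b, a catalytic subunit, was at 56.1, 46.9 and 41.4 FPKM in the WT and 79.1, 68.2 and 69.5 FPKM in the GcKO libraries (log2 fold change 0.58, SE 0.16, limma adjusted p = 0.0161). The groups stood apart for both, in opposite directions. The other catalytic subunit Stt3a (6.41, 2.17 and 7.46 FPKM in WT, 9.46, 7.13 and 13.1 FPKM in GcKO) and the small subunits Ost4 (-0.60, limma adjusted p = 0.0814) and Ostc (-0.51, limma adjusted p = 0.11) did not pass. Of 14 transcripts for GPI anchor synthesis, a pathway that also uses dolichol-phosphate mannose, 2 (14.3%) fell, near the 12.5% of all, and none rose. Pigf fell from 326, 330.3 and 368 to 155, 162 and 162 FPKM (log2 fold change -1.09, SE 0.17, limma adjusted p = 6.0e-04). Pigc fell by 0.65 (no longer called without GcKO replicate 1, with limma adjusted p = 0.0527). With the same-sum scaling, the opposite sign was found for Pigc (0.35). Not called after quantile normalization, at the same sign, were Dad1, Pigf and Pigc (limma adjusted p = 0.0553 to 0.15).

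The lectin chaperone Canx, whose product calnexin holds newly glycosylated proteins in the ER, was the largest fall of the glycoprotein folding group, with 400.4, 382 and 338 FPKM in the WT and 95.6, 117 and 136 FPKM in the GcKO libraries (log2 fold change -1.68, SE 0.16, limma adjusted p = 4.1e-05). The GcKO values were at 31.2% of the WT mean and all below the lowest WT value. Calr, its soluble relative, was at 27.9, 43.2 and 36.997 FPKM in WT and 45.1, 41.9 and 46.5 FPKM in GcKO and did not pass (limma adjusted p = 0.26). Ganab, a glucosidase II subunit gene, rose from 1.28, 0.484 and 0 to 2.98, 1.803 and 3.27 FPKM (no longer called without GcKO replicates 1 and 3 and WT replicate 6, with limma adjusted p = 0.0600 to 0.0749). ER-associated degradation extracts misfolded glycoproteins for the proteasome. Of its 15 transcripts tested, 4 (26.7%) rose and none fell, with a median of 0.70. Of all transcripts 9.7% rose and 12.5% fell. The median WT level of the 15 was 3.11 FPKM, and such scarce transcripts seldom fell. In the tenth of all transcripts from 2.46 to 3.90 FPKM, 12.1% were called higher and 2.67% lower. Edem2, a mannosidase that marks glycoproteins for removal, was at 6.93, 6.96 and 3.73 FPKM in the WT and 12.6, 13.6 and 13.8 FPKM in the GcKO libraries (log2 fold change 1.10, SE 0.27, limma adjusted p = 0.0101). Edem3 (0.247, 0.279 and 0.2396 to 1.82, 2.36 and 1.099 FPKM) and Sel1l of the ubiquitin ligase complex (1.33, 3.003 and 1.81 to 6.97, 4.36 and 5.61 FPKM) rose too (limma adjusted p = 0.0178 and 0.0103), and so did Nploc4 (1.21, no longer called without GcKO replicates 1 and 2 and WT replicates 5 and 6, with limma adjusted p = 0.0915 to 0.13). The 3 GcKO values exceeded the WT values in all 4. Ngly1, the glycanase that strips the glycan from extracted proteins, named after its values were seen, was at 14.2, 6.703 and 7.48 FPKM in WT and 13.6, 17.7 and 15.9 FPKM in GcKO (limma adjusted p = 0.0610). Calls lost after quantile normalization, with the sign kept, were those of Ganab, Edem3 and Nploc4 (limma adjusted p = 0.0834 to 0.16).

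The ER chaperones that rise in an unfolded protein response did not move as a group. Hspa5, which encodes the chaperone BiP, was at 28.9, 35.9 and 45.5 FPKM in the WT and 41.2, 36.8 and 38.3 FPKM in the GcKO libraries (log2 fold change 0.10, SE 0.20, limma adjusted p = 0.75), and Hsp90b1 at 38.1, 23.3 and 22.4 FPKM in WT and 28.7, 26.8 and 28.3 FPKM in GcKO (log2 fold change 0.04, limma adjusted p = 0.92). The values of both groups overlapped. Of 12 chaperones and cofactors tested, Manf fell, from 236, 227 and 208 to 124, 138 and 149 FPKM (log2 fold change -0.71, SE 0.14, limma adjusted p = 0.0033), and Dnajc3 rose by 0.77 (no longer called without GcKO replicates 1 and 3 and WT replicates 4 and 6, with limma adjusted p = 0.0767 to 0.15). Xbp1 was listed at 0 in all 6 libraries. Of the transducers, Atf4 was at 15.9, 33.02 and 20.5 FPKM in the WT and 72.5, 45.5 and 28.1 FPKM in the GcKO libraries (log2 fold change 1.00, SE 0.32, limma adjusted p = 0.0392, no longer called without GcKO replicates 1 and 2 and WT replicates 4 and 6, with limma adjusted p = 0.11 to 0.20). GcKO replicate 3 lay inside the WT range for Atf4. Ddit3, the stress transcription factor CHOP, was abundant and fell, from 316, 353 and 501 to 145, 202 and 258 FPKM (log2 fold change -0.96, SE 0.24, limma adjusted p = 0.0117, no longer called without GcKO replicate 1 and WT replicate 6, with limma adjusted p = 0.0654 to 0.0684). ATF4 induces amino acid supply and stress genes, and its targets were scarce, with a median WT level of 1.24 FPKM. In the tenth of all transcripts from 0.985 to 1.55 FPKM, 1.24% fell and 7.44% rose, against 12.5% and 9.7% of all. Of 24 tested targets of ATF4, none fell and 2 (8.33%) rose, a share near that of all transcripts, with a median of 0.51. Both encode aminoacyl-tRNA synthetases, Gars (2.93, 0.829 and 1.42 FPKM in WT, 8.12, 3.94 and 7.03 FPKM in GcKO, limma adjusted p = 0.0072) and Iars (11.3, 10.6 and 17.2 FPKM in WT, 32.8, 23.8 and 21.1 FPKM in GcKO, limma adjusted p = 0.0090). None of the 7 tested amino acid synthesis and import genes or 8 stress factor genes was called. Asns was listed at 0 in WT and at 0.771, 0.722 and 0 FPKM in GcKO, below the level needed for the test. Scaled to the same FPKM sum, the sign turned for Manf (0.33) and Ddit3 (0.0764). The quantile-normalized fit no longer called Manf, Dnajc3 and Ddit3 (limma adjusted p = 0.0902 to 0.83).

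Cholesterol and dolichol share the mevalonate pathway up to farnesyl diphosphate. Of 18 transcripts of this pathway 5 (27.8%) fell and none rose, with a median of -0.28, against 12.5% and 9.7% of all transcripts. Among the 1049 most abundant transcripts, 3 of its 4 members were called lower, against 68.7% of all 1049. With equal sums 1 of the 18 was called lower and 7 higher, and after quantile normalization 3 lower and none higher. Sc5d, of a late step to cholesterol, was at 148, 122 and 123.2 FPKM in the WT and 29.8, 40.3 and 44.4 FPKM in the GcKO libraries (log2 fold change -1.77, SE 0.19, limma adjusted p = 9.2e-05). It lies on chromosome 9, as does Dpagt1. Insig1, which holds the sterol sensor in the ER, was at 352, 366 and 362 FPKM in the WT and 165, 190.4 and 171 FPKM in the GcKO libraries (log2 fold change -1.03, SE 0.14, limma adjusted p = 3.2e-04). Hmgcs1 fell from 177, 175 and 153 to 108, 109.8 and 104 FPKM, Msmo1 from 29.1, 28.4 and 29.2 to 16.1, 11.97 and 16.7 FPKM (limma adjusted p = 0.0059 and 0.0049), and Ggps1 by 1.08 (no longer called without GcKO replicate 1 and WT replicate 4, with limma adjusted p = 0.0684 to 0.0703). Fdft1, the first enzyme committed to sterols (-0.31), did not pass. Vesicle coats between ER and Golgi were represented by 22 transcripts, of which 4 (18.2%) rose and 1 (4.55%) fell, against 9.7% and 12.5% of all. Their median WT level was 2.86 FPKM. In the tenth of all transcripts from 2.46 to 3.90 FPKM, 12.1% were called higher and 2.67% lower. Copa of the COPI coat rose from 1.43, 1.61 and 2.43 to 9.95, 4.51 and 6.82 FPKM and Sec16a of the COPII exit sites from 3.32, 2.92 and 1.79 to 7.26, 7.19 and 7.75 FPKM (limma adjusted p = 0.0040 and 0.0067). Copb1 rose too (0.71), as did Sec31a (1.21, no longer called without GcKO replicates 1 and 2 and WT replicates 4 and 6, with limma adjusted p = 0.0673 to 0.11). The abundant COPII GTPase transcript Sar1b fell from 601, 603 and 553 to 212, 318 and 378 FPKM (limma adjusted p = 0.0029). On the same-sum scale the sign turned for Insig1 (0.000577), Hmgcs1 (0.39), Msmo1 (0.0688) and Sar1b (0.0459). Not called after quantile normalization, at the same sign, were Insig1, Hmgcs1, Sec31a and Sar1b (limma adjusted p = 0.0679 to 0.90).

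Of the 3 zona pellucida transcripts, whose proteins carry N-glycans, 1 was called. Zp3 was at 674, 599 and 627 FPKM in the WT and 493, 596 and 507 FPKM in the GcKO libraries (log2 fold change -0.25, SE 0.17, limma adjusted p = 0.31), and Zp1 at 34.8, 22.3 and 31.9 FPKM in WT and 16.97, 34.7 and 31.3 FPKM in GcKO (limma adjusted p = 0.75). Zp2 fell, from 191, 163 and 172 to 73.6, 116 and 131 FPKM (log2 fold change -0.74, SE 0.20, limma adjusted p = 0.0183, no longer called without GcKO replicate 1 and WT replicate 4, with limma adjusted p = 0.0650 to 0.0688). All GcKO values of Zp2 and Zp3 lay below WT, those of Zp3 by as little as 596 against 599 FPKM, while those of Zp1 lay across the WT range. Izumo1r, the egg receptor for sperm, fell by 0.72 (no longer called without WT replicate 6, with limma adjusted p = 0.0512), and Astl, the protease that hardens the zona, rose by 0.88 (no longer called without GcKO replicates 1 and 2 and WT replicate 4, with limma adjusted p = 0.0501 to 0.0640). Among factors that oocytes send to the follicle, Gdf9 was at 3404, 2934 and 3243 FPKM in the WT and 1652, 2795 and 2502 FPKM in the GcKO libraries (log2 fold change -0.50, SE 0.24, limma adjusted p = 0.16) and Bmp15 at 1823, 1443 and 1316 FPKM in the WT and 1236, 1819 and 1637 FPKM in the GcKO libraries (log2 fold change 0.03, SE 0.18, limma adjusted p = 0.92). Neither passed, and GcKO replicate 1 was the lowest library for both. The 3 oocyte-secreted protein transcripts fell by about 1 on the log2 scale. Oosp1 was at 3965, 4252 and 4644 FPKM in the WT and 1825, 2138 and 2602 FPKM in the GcKO libraries (log2 fold change -0.98, SE 0.18, limma adjusted p = 0.0020), Oosp2 fell by 0.99 and Oosp3 by 1.07 (limma adjusted p = 0.0013 and 0.0019), with no overlap. Of the 10 transcripts of the subcortical maternal complex, which anchors cytoplasmic stores for the embryo, 4 fell and none rose as deposited (median -0.29). Of all transcripts 12.5% fell and 9.7% rose. Among the 1049 most abundant transcripts, 4 of its 8 members were called lower, a share below the 68.7% of all 1049. The direction turned under both other scalings, with 1 lower and 6 higher on the same-sum scale (median 0.75) and 0 lower and 4 higher after quantile normalization (median 0.38). Ooep was at 6313, 6012 and 7181 FPKM in the WT and 2256, 2406 and 3103 FPKM in the GcKO libraries (log2 fold change -1.34, SE 0.18, limma adjusted p = 2.2e-04). The other falls were Khdc3 (-1.01, no longer called without GcKO replicate 1 and WT replicates 4, 5 and 6, with limma adjusted p = 0.0532 to 0.10), Nlrp14 (-1.13, no longer called without GcKO replicates 1 and 2 and WT replicates 4, 5 and 6, with limma adjusted p = 0.0661 to 0.11) and Nlrp9a (-0.90, no longer called without GcKO replicates 1 and 2 and WT replicates 4 and 5, with limma adjusted p = 0.0513 to 0.0759). Nlrp5, Tle6, Padi6 and Zbed3 were not called (-0.46, 0.18, 0.33 and -0.12). With the same-sum scaling, the opposite sign was found for Zp2 (0.29), Oosp1 (0.0567), Oosp2 (0.0471), Khdc3 (0.0253), Nlrp9a (0.13) and Izumo1r (0.31). After quantile normalization it turned for Oosp1 (0.34), Oosp2 (0.29), Oosp3 (0.0238), Nlrp14 (0.13) and Izumo1r (0.0485). Calls lost after quantile normalization, with the sign kept, were those of Zp2, Ooep, Khdc3 and Nlrp9a (limma adjusted p = 0.44 to 0.89). Zp3, Gdf9, Bmp15, Padi6 and Zbed3, not called as deposited, were called higher in GcKO both on the same-sum scale (0.78, 0.54, 1.07, 1.37 and 0.92, limma adjusted p = 2.1e-04 to 0.0485) and after quantile normalization (0.66, 0.78, 1.12, 1.05 and 1.06, limma adjusted p = 0.0023 to 0.0444). Zp1, Nlrp5 and Tle6 were called higher on the same-sum scale alone (0.86, 0.57 and 1.21, limma adjusted p = 0.0012 to 0.0386).

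**Figure D2:**
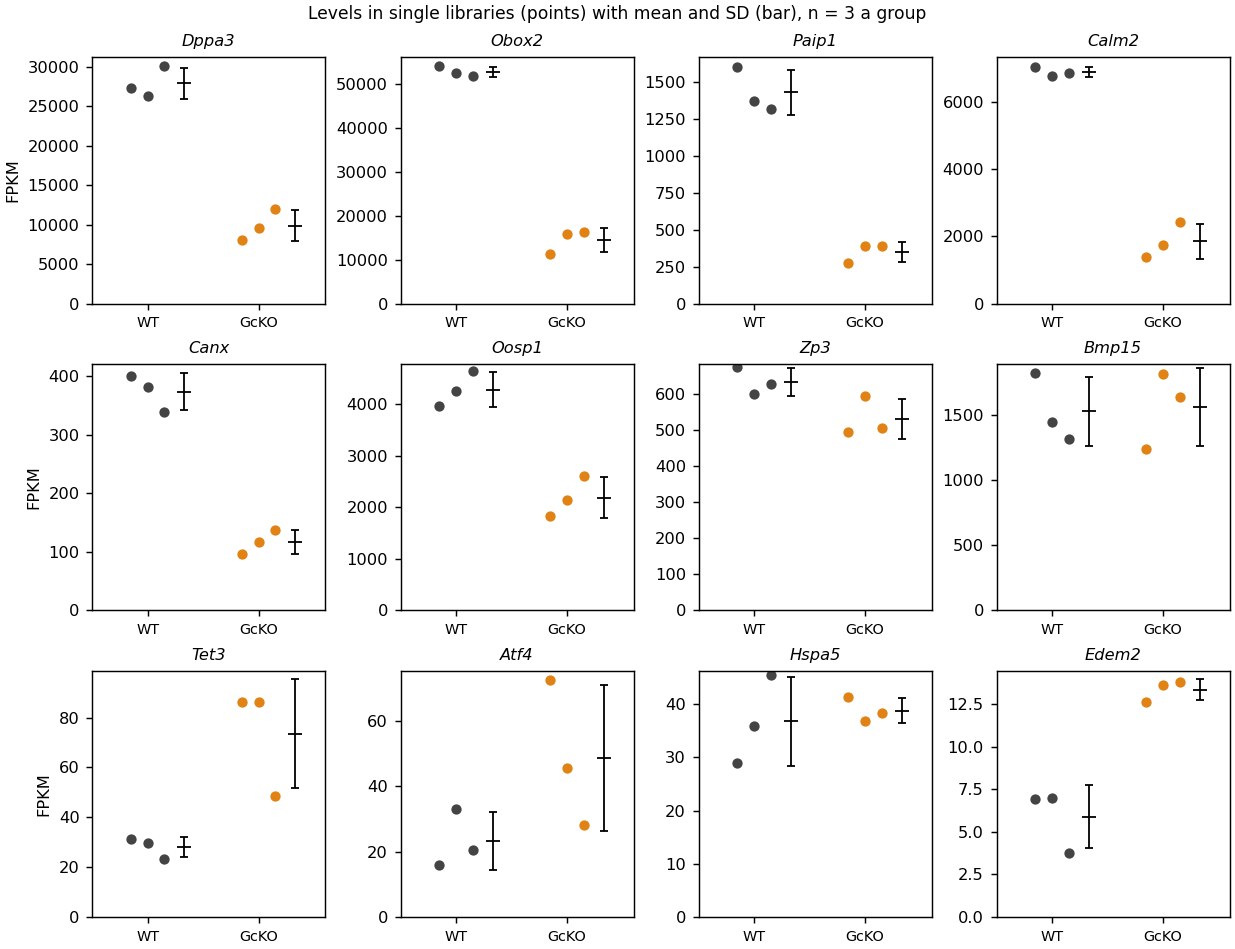
Level in FPKM (vertical axes from 0, a scale for each transcript) of 12 transcripts in the 3 WT and 3 GcKO libraries, each point a library, with the mean and SD of each group. The points of the groups stand apart for Dppa3, Obox2, Paip1, Calm2, Canx and Oosp1, lower in GcKO as deposited (the sign of Oosp1 turned under both other scalings), and for Tet3 and Edem2, higher in GcKO, and they overlap for Bmp15, Atf4 and Hspa5.

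The study names 24 of the tested transcripts as lowered in mutant or knockout oocytes, and 22 of them, all but Ost4 and Ostc, were called lower here as deposited (median -1.08). With equal sums 8 were called lower and 2 higher (median -0.05), and after quantile normalization 9 lower and none higher (median -0.18). They were chosen on these samples and are no independent evidence of a direction. Dppa3, which shields the maternal genome from demethylation and is among the most abundant transcripts, was at 27299, 26356 and 30143 FPKM in the WT and 8055, 9600.03 and 11959.5 FPKM in the GcKO libraries (log2 fold change -1.52, SE 0.19, limma adjusted p = 1.6e-04). Npm2, which organizes the nucleoli and chromatin of the egg, was at 666, 630.1 and 719.98 FPKM in the WT and 202, 276 and 325 FPKM in the GcKO libraries (log2 fold change -1.35, SE 0.18, limma adjusted p = 2.4e-04). The replacement histone transcripts H3f3a (2431, 2515 and 2569 to 792, 1057 and 1501 FPKM) and H3f3b (4796, 4248 and 4487 to 1176, 1550.2 and 1810.2 FPKM) and the oocyte linker histone H1foo (9595, 8922 and 9071 to 3800.5, 4993 and 4830.03 FPKM) fell as well (limma adjusted p = 0.0020, 9.2e-05 and 3.3e-04). Of 16 chromatin transcripts 7 fell and 2 rose, among them the histone methyltransferase Ezh2 (0.90, no longer called without GcKO replicate 1 and WT replicate 5, with limma adjusted p = 0.0638 to 0.0868). DNA methylation factors went mostly the other way, with a median of 0.56. Of 11 tested 5 (45.5%) rose, against 9.7% of all transcripts, and Dppa3 fell. Tet3, the dioxygenase that oxidizes methylated cytosine, was at 31.2, 29.8 and 23.5 FPKM in the WT and 86.1, 86.1 and 48.4 FPKM in the GcKO libraries (log2 fold change 1.32, SE 0.22, limma adjusted p = 8.9e-04). Trim28, the corepressor that guards imprinted marks, was at 1.05, 1.78 and 1.02 FPKM in the WT and 10.1, 11.9 and 7.36 FPKM in the GcKO libraries (log2 fold change 2.23, SE 0.32, limma adjusted p = 3.7e-04). Kdm1b, the demethylase needed for oocyte imprints, was at 13.8, 13.1 and 13.6 FPKM in the WT and 42.6, 23.2 and 26.2 FPKM in the GcKO libraries (log2 fold change 1.07, SE 0.24, limma adjusted p = 0.0054). Uhrf1 and Rlim rose by 0.83 and 0.85 (Uhrf1 no longer called without GcKO replicates 1 and 2 and WT replicate 6, with limma adjusted p = 0.0579 to 0.0774; Rlim no longer called without GcKO replicate 1, with limma adjusted p = 0.0659). Dnmt1 was at 74.3, 68.1 and 67.3 FPKM in WT and 83.7, 68.7 and 79.2 FPKM in GcKO and did not pass. The same-sum scaling turned the sign for H1foo (0.0115). Quantile normalization turned it for H1foo (0.28). The quantile-normalized fit no longer called Dppa3, H3f3a and Rlim (limma adjusted p = 0.0503 to 0.65).

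Oocyte transcription factors split, 4 of 17 (23.5%) falling and 4 rising, against 12.5% and 9.7% of all transcripts. Of 4 Obox homeobox transcripts tested 3 fell. Obox2, the most abundant transcript of WT oocytes, was at 53924, 52453 and 51697 FPKM in the WT and 11305, 15732 and 16275 FPKM in the GcKO libraries (log2 fold change -1.89, SE 0.19, limma adjusted p = 6.4e-05), and Obox1 fell from 35544, 33956 and 34059 to 7117, 10864 and 12097 FPKM and Obox5 from 24055, 21842 and 23858 to 5043, 7419 and 8962 FPKM. They are close copies, so reads may be shared among them. Klf17 rose, from 28.2, 20.2 and 27.4 to 60.1, 63.7 and 38.4 FPKM (log2 fold change 1.05, SE 0.24, limma adjusted p = 0.0067), and Lhx8, a factor of follicle formation, by 0.72 (no longer called without GcKO replicates 1 and 2 and WT replicates 4, 5 and 6, with limma adjusted p = 0.0706 to 0.21). Gata4 rose from 0, 1.698 and 0 to 3.902, 2.88 and 2.24 FPKM (no longer called without GcKO replicate 1 and WT replicates 4 and 6, with limma adjusted p = 0.0595 to 0.0702) and Stat3 by 0.94 (no longer called without GcKO replicates 1 and 2 and WT replicates 5 and 6, with limma adjusted p = 0.0817 to 0.14). Nobox and Figla did not pass (0.44 and -0.56). Of 33 transcripts that keep, translate or clear maternal mRNA, 7 (21.2%) fell and 9 (27.3%) rose, against 12.5% and 9.7% of all transcripts. Those that fell were abundant, being 7 of the 9 members among the 1049 most abundant transcripts, of which 68.7% were called lower. Eif4e, the cap-binding factor, was at 953, 819.6 and 847 FPKM in the WT and 215, 365 and 399 FPKM in the GcKO libraries (log2 fold change -1.46, SE 0.19, limma adjusted p = 2.3e-04). Btg4, the adaptor that brings the CCR4-NOT deadenylase to maternal mRNA, was at 6876, 5972 and 6127 FPKM in the WT and 2475, 3495 and 3518 FPKM in the GcKO libraries (log2 fold change -1.02, SE 0.16, limma adjusted p = 6.3e-04). Dazl (446, 451 and 497 to 208, 199.96 and 259 FPKM), Zar1l (1415, 1279 and 1269.6 to 499, 673 and 811 FPKM) and the deadenylase Cnot7 (747, 578 and 562 to 284, 382 and 353 FPKM) fell too (limma adjusted p = 7.1e-04, 0.0013 and 0.0021). Those that rose included Cpeb1, which holds stored mRNA in check, from 95.5, 94.9 and 99.1 to 149, 135 and 138 FPKM (log2 fold change 0.54, SE 0.14, limma adjusted p = 0.0117), the eIF4E repressor Eif4enif1 (18.7, 22.7 and 22.2 to 61.4, 40.03 and 31.8 FPKM) and the decapping factor Dcp1a (19.01, 16.2 and 18.2 to 46.4, 40.7 and 28.7 FPKM; limma adjusted p = 0.0053 and 0.0029). Pan2, of a poly(A)-trimming nuclease, rose from 2.66, 2.15 and 0.738 to 8.57, 6.399 and 4.12 FPKM (limma adjusted p = 0.0077). Ybx2, the main mRNA-masking protein of germ cells, rose by 0.80 (no longer called without GcKO replicates 1 and 2 and WT replicate 4, with limma adjusted p = 0.0609 to 0.0664), and the oocyte cap-binding protein Eif4e1b by 0.97 (no longer called without GcKO replicates 1 and 3 and WT replicate 4, with limma adjusted p = 0.0609 to 0.0700). In each of these the 3 GcKO values lay outside the WT range. Scaled to the same FPKM sum, the sign turned for Btg4 (0.0232), Zar1l (0.0137) and Cnot7 (0.15). Under quantile normalization the sign turned for Btg4 (0.19) and Cnot7 (0.0698). Not called after quantile normalization, at the same sign, were Obox1, Obox5, Stat3, Dazl, Zar1l and Eif4e1b (limma adjusted p = 0.0509 to 0.60).

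In the meiotic division list, 14 of 70 transcripts (20.0%) fell and 11 (15.7%) rose, with a median of 0.33, against 12.5% and 9.7% of all transcripts. Among the 1049 most abundant transcripts, 12 of its 20 members were called lower, a share below the 68.7% of all 1049. Of the CDK1 group, Ccnb1, the cyclin that drives entry into division, was at 919, 739 and 703 FPKM in the WT and 338, 487 and 517 FPKM in the GcKO libraries (log2 fold change -0.83, SE 0.17, limma adjusted p = 0.0035). The CDK-binding subunits Cks1b (3299.5, 2989 and 3162 to 894, 1466 and 1475 FPKM) and Cks2 (2949.8, 2837 and 3392 to 1068, 1321 and 1783 FPKM) fell (limma adjusted p = 4.3e-04 and 0.0012), and Arpp19, an inhibitor of the phosphatase that opposes CDK1, fell by 1.17. The phosphatase Cdc25a rose by 1.56 (no longer called without GcKO replicates 1 and 2, with limma adjusted p = 0.0664 to 0.0900) and Fbxo43, for the arrest factor EMI2, by 0.73 (no longer called without GcKO replicates 1 and 2 and WT replicates 5 and 6, with limma adjusted p = 0.0739 to 0.0915). Ccnb2, Wee2 and Mos did not pass (-0.04, 0.20 and -0.35). Of 8 transcripts of the cAMP arrest, which holds the oocyte at the GV stage, the protein kinase A subunits Prkacb (0, 0 and 0 to 0.653, 1.22 and 1.27 FPKM, limma adjusted p = 0.0218) and Prkar1a (0.79, no longer called without GcKO replicates 1 and 2 and WT replicates 5 and 6, with limma adjusted p = 0.0644 to 0.16) rose and none fell. Pttg1, which encodes securin, was at 984, 932 and 896 FPKM in the WT and 352, 458 and 558 FPKM in the GcKO libraries (log2 fold change -1.06, SE 0.18, limma adjusted p = 9.6e-04). Of the cohesin group, Esco2, which acetylates cohesin, fell from 679, 637 and 676 to 301, 323 and 393 FPKM and Wapal, which releases it, from 363, 266 and 222 to 111, 142 and 121 FPKM, while the loader Nipbl rose from 1.097, 0.532 and 1.22 to 6.43, 3.06 and 2.79 FPKM (limma adjusted p = 2.6e-04, 0.0015 and 0.0095). The spindle checkpoint divided evenly. Mad2l1 was at 1444, 1292 and 1397 FPKM in the WT and 393, 485 and 703 FPKM in the GcKO libraries (log2 fold change -1.43, SE 0.20, limma adjusted p = 3.3e-04), and Birc5 and Aurkc of the chromosomal passenger complex fell by 1.18 and 0.86. Their partner Incenp rose from 1.58, 2.99 and 2.05 to 12.8, 8.304 and 5.73 FPKM, the checkpoint kinase Ttk from 11.98, 9.98 and 10.4 to 34.2, 22.99 and 22.6 FPKM (limma adjusted p = 0.0018 and 0.0011) and Mad1l1 by 1.24. Of the anaphase-promoting complex, Anapc15, Anapc16 and Anapc11 fell (-0.76, -0.85 and -0.86), whereas the large scaffold Anapc1 rose from 0.358, 0.608 and 0.697 to 3.31, 2.74 and 2.51 FPKM (limma adjusted p = 0.0040). On the same-sum scale the sign turned for Ccnb1 (0.21), Esco2 (0.0616), Anapc15 (0.27), Anapc16 (0.18), Anapc11 (0.16) and Aurkc (0.17). After quantile normalization it turned for Ccnb1 (0.0966), Cks2 (0.0113), Anapc15 (0.0303) and Birc5 (0.13). Calls lost after quantile normalization, with the sign kept, were those of Cks1b, Prkacb, Prkar1a, Pttg1, Esco2, Wapal, Mad1l1, Anapc16 and Aurkc (limma adjusted p = 0.0516 to 0.92).

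Of 23 replication licensing transcripts, stored for the first cell cycles of the embryo, 5 fell and 6 rose, against 12.5% and 9.7% of all transcripts. Orc6 was at 341, 395 and 444 FPKM in the WT and 97.5, 122 and 202 FPKM in the GcKO libraries (log2 fold change -1.54, SE 0.26, limma adjusted p = 0.0012), and Gmnn, the licensing inhibitor geminin, at 294, 357 and 342 FPKM in the WT and 102, 111 and 133 FPKM in the GcKO libraries (log2 fold change -1.52, SE 0.21, limma adjusted p = 2.9e-04). Orc4 fell by 0.59, Orc5 by 0.81 (no longer called without WT replicate 4, with limma adjusted p = 0.0537) and Gins1 by 0.78 (no longer called without GcKO replicates 1 and 2 and WT replicates 4 and 6, with limma adjusted p = 0.0579 to 0.0806). The helicase subunits Mcm2 (6.53, 5.68 and 9.76 to 15.5, 14.6 and 14.1 FPKM) and Mcm3 (0, 0 and 1.15 to 3.42, 2.74 and 2.66 FPKM) rose (limma adjusted p = 0.0134 and 0.0037). Mcm4, Cdt1 and Cdc6 rose too. Mcm4 was no longer called without GcKO replicates 1 and 2 and WT replicates 5 and 6, with limma adjusted p = 0.0607 to 0.15. Cdt1 was no longer called without GcKO replicate 1 and WT replicates 4 and 5, with limma adjusted p = 0.0747 to 0.14. Cdc6 was no longer called without GcKO replicates 1, 2 and 3 and WT replicates 5 and 6, with limma adjusted p = 0.0513 to 0.0927. Of 16 DNA damage sensor and repair transcripts 3 fell and 3 rose. The checkpoint kinase Chek1 fell from 267, 255 and 254 to 105, 103 and 129 FPKM, and Brca2 rose from 10.7, 5.799 and 7.83 to 23.5, 15.2 and 16.6 FPKM (limma adjusted p = 1.5e-04 and 0.0053). Rpa1, of the single-strand binding complex, rose by 1.04 and the repair factor Rad23b by 1.19, while Rpa3 (-0.73, no longer called without GcKO replicates 1 and 2 and WT replicates 5 and 6, with limma adjusted p = 0.0956 to 0.13) and Ercc1 (-1.48, no longer called once any 1 of the 6 libraries was left out, limma adjusted p = 0.0590 to 0.17) fell. Of 12 transcripts of the p53 family and its targets, Mdm4, a p53 inhibitor, fell by 1.02 (limma adjusted p = 7.7e-04) and none rose. Of 54 replication-dependent histone transcripts tested, 8 fell and 2 rose (median -0.34), the most abundant being Hist1h2bc at 1192, 1373 and 1593 FPKM in the WT and 500.3, 671 and 700.3 FPKM in the GcKO libraries (log2 fold change -1.16, SE 0.16, limma adjusted p = 3.3e-04). Histone transcripts are near-identical copies and single members are uncertain. Of 11 clock transcripts 3 fell and 2 rose. The nuclear receptors Nr1d1 (68.2, 96.97 and 75.9 to 21.1, 30.01 and 37.6 FPKM) and Rora (49.4, 51.7 and 51.3 to 13.3, 19.5 and 20.1 FPKM) fell (limma adjusted p = 0.0014 and 5.0e-04). Bhlhe41 fell as well (-0.65, no longer called without GcKO replicates 1 and 2 and WT replicate 5, with limma adjusted p = 0.0577 to 0.0599). Cry1 rose (0.95, no longer called without GcKO replicates 1, 2 and 3 and WT replicates 5 and 6, with limma adjusted p = 0.0842 to 0.15), as did Csnk1e (0.88, no longer called without GcKO replicates 1 and 2 and WT replicates 4 and 5, with limma adjusted p = 0.0888 to 0.20). With the same-sum scaling, the opposite sign was found for Rpa3 (0.30), Mdm4 (0.0208), Bhlhe41 (0.34), Orc4 (0.43), Orc5 (0.23) and Gins1 (0.25). Quantile normalization turned it for Rpa3 (0.21) and Orc5 (0.12). The quantile-normalized fit no longer called Mdm4, Hist1h2bc, Bhlhe41, Cry1, Orc4, Gins1, Mcm4, Cdt1 and Cdc6 (limma adjusted p = 0.0518 to 0.76).

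The proteasome degrades ubiquitin-tagged proteins in a 20S core capped by the 19S particle. Of 14 core transcripts tested, 12 fell, 9 of them in each fit without 1 library, and none rose, with a median of -1.12. Of 20 cap transcripts 6 fell, 3 in each such fit, and none rose, with a median of -0.29. Psma6 was at 222, 234 and 241 FPKM in the WT and 64.9, 82.7 and 89.7 FPKM in the GcKO libraries (log2 fold change -1.55, SE 0.17, limma adjusted p = 1.1e-04). Psmb7 was at 346, 376 and 369 FPKM in the WT and 102, 124 and 159 FPKM in the GcKO libraries (log2 fold change -1.52, SE 0.20, limma adjusted p = 2.2e-04), and Psmb1 at 590.5, 617 and 716 FPKM in the WT and 196, 237 and 269.97 FPKM in the GcKO libraries (log2 fold change -1.45, SE 0.17, limma adjusted p = 1.2e-04). The most abundant core transcript, Psma2, fell by 1.09 (limma adjusted p = 8.8e-04). Psmb6, of the caspase-like site, fell from 187, 142 and 168 to 92.6, 106 and 101 FPKM (log2 fold change -0.72, SE 0.15, limma adjusted p = 0.0035). Psmb5, of the chymotrypsin-like site, and Psmb4 did not pass, Psmb5 with 59.7, 64.5 and 52.4 FPKM in the WT and 59.7, 69.5 and 62.3 FPKM in the GcKO libraries (log2 fold change 0.12, limma adjusted p = 0.57), and its groups overlapped. In the cap, Psmd10, Psmc6 and Psmd7 fell by 1.11, 0.92 and 0.90. On the same-sum scale the medians were -0.10 for the core and 0.70 for the cap, and after quantile normalization -0.35 and -0.27. With equal sums 3 core transcripts were called lower and 2 higher, and in the cap none lower and 9 higher. After quantile normalization 6 core transcripts were lower and 1 higher, and in the cap 1 and 1. The same-sum scaling turned the sign for Psmb6 (0.31), Psmc6 (0.11) and Psmd7 (0.12). Not called after quantile normalization, at the same sign, were Psma2, Psmb6, Psmc6 and Psmd7 (limma adjusted p = 0.0517 to 0.54).

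Proteasome genes share a regulator, the ER-bound factor NRF1 (Nfe2l1), which is freed from its N-glycans by NGLY1 and binds antioxidant response elements. Nfe2l1, named after its values were seen, rose from 2.89, 4.5001 and 2.81 to 10.8, 8.03 and 5.76 FPKM (log2 fold change 1.05, SE 0.28, limma adjusted p = 0.0166, no longer called without GcKO replicate 1 and WT replicate 6, with limma adjusted p = 0.0501 to 0.0774). The promoter windows of the core genes, 250 bases before to 50 bases after the RefSeq start (GRCm38.p6), were searched for the letters TGACNNNGC on both strands. The element was in 2 of 12 windows of 11 matched core genes (16.7%), in 3 of 18 windows of 17 matched cap genes (16.7%), against 14.1% of the 10027 windows matched to tested transcripts and 12.4% of all 32851 windows. The windows of both core genes that hold it are printed, since one belongs to a transcript that fell and the other to one that did not pass. Capitals mark the element.
Psmb6 (chr11:70525107-70525406, forward strand): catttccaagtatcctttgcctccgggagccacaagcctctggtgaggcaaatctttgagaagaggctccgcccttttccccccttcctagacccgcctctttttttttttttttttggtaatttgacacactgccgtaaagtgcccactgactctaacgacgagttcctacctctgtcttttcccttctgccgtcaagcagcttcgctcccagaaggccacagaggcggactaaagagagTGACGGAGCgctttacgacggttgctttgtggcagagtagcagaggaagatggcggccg
Psmb5 (chr14:54617946-54618245, reverse strand): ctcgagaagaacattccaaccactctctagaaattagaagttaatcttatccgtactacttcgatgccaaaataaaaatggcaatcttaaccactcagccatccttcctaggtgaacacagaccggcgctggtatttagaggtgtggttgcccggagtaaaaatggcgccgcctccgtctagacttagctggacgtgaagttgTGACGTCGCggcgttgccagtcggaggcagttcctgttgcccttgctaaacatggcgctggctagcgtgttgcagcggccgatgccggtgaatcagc
The match starts 9 bases before the start of Psmb6 and 47 bases before that of Psmb5, on the coding strand in both. It is a match of letters, not a measured binding site.

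Of 71 transcripts for initiation by RNA polymerase II, 26 (36.6%) were called lower and 6 (8.45%) higher as deposited. Of all transcripts 12.5% fell and 9.7% rose. The split turned with the scaling, to 2 lower and 31 higher with equal sums and 6 lower and 4 higher after quantile normalization. Of 12 polymerase subunit transcripts 6 fell and none rose (median -0.93, same-sum 0.08, quantile -0.14), Polr2d with 6005, 5794 and 6092 FPKM in the WT and 1460.1, 2105 and 2522 FPKM in the GcKO libraries (log2 fold change -1.59, SE 0.19, limma adjusted p = 1.4e-04). Taf9, a subunit of the TFIID and SAGA complexes, was at 3459, 3293 and 3589 FPKM in the WT and 691, 1072 and 1389.5 FPKM in the GcKO libraries (log2 fold change -1.77, SE 0.22, limma adjusted p = 1.7e-04), and Gtf2h5 of TFIIH fell by 1.04 and Gtf2b by 0.75 (limma adjusted p = 6.6e-04 and 0.0060). Of 26 Mediator transcripts 10 fell, among them Med10 (1811, 1648 and 1903 to 559.9, 763 and 949.96 FPKM), Med7 and Med4 (-1.29 and -1.27), and 5 rose, among them Med17 (13.8, 11.7 and 13.8 to 26.6, 21.4 and 19.2 FPKM). Of 25 initiation transcripts among the 1049 most abundant, 24 were called lower, against 68.7% of all 1049. The 9 core proteasome transcripts among them were all called lower. Of 18 Sm and Lsm proteins of RNA processing 9 fell and none rose (median -0.74, same-sum 0.29, quantile 0.06), Lsm10 of the U7 particle with 3658, 3584 and 3679.7 FPKM in the WT and 1111, 1468 and 1726 FPKM in the GcKO libraries (log2 fold change -1.37, SE 0.17, limma adjusted p = 1.6e-04). Lsm5, Lsm3 and Snrpe fell by 1.16, 1.04 and 1.01. Scaled to the same FPKM sum, the sign turned for Gtf2b (0.29), Lsm3 (0.00346) and Snrpe (0.0239). After quantile normalization it turned for Gtf2b (0.14) and Lsm3 (0.15). Calls lost after quantile normalization, with the sign kept, were those of Gtf2h5, Med10, Lsm10, Lsm5 and Snrpe (limma adjusted p = 0.11 to 0.59).

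Larger housekeeping groups stood nearer to the rest of the transcripts. Of 80 oxidative phosphorylation transcripts 26 fell and 4 rose (median -0.48), of 67 cytosolic ribosomal protein transcripts 21 fell and 1 rose (median -0.40), and of 76 mitochondrial ribosomal protein transcripts 24 fell and 2 rose (median -0.41). Scaled to the same sum the 3 medians were positive (0.50, 0.61 and 0.57), below the shifted median of 0.79, and after quantile normalization they were 0.10, -0.04 and -0.02. Among the 1049 most abundant transcripts, 21 of 38, 12 of 21 and 17 of 31 of them were called lower, each a share below the 68.7% of all 1049. Cox7c of cytochrome c oxidase was at 119, 125 and 104 FPKM in the WT and 35.2, 37.7 and 28.7 FPKM in the GcKO libraries (log2 fold change -1.75, SE 0.26, limma adjusted p = 4.2e-04), and Cox7a2l, which helps to join respiratory complexes, at 942, 1032 and 1004 FPKM in the WT and 304, 382 and 449 FPKM in the GcKO libraries (log2 fold change -1.41, SE 0.17, limma adjusted p = 1.6e-04). Sdhd, a membrane subunit of complex II, fell by 1.23, and its catalytic partner Sdha rose by 0.86 (no longer called without GcKO replicate 1, with limma adjusted p = 0.0594). The ATP synthase was split in the same way, with the catalytic Atp5b rising from 13.5, 12.03 and 12.2 to 25.02, 34.6 and 25.4 FPKM (log2 fold change 1.10, SE 0.19, limma adjusted p = 0.0014) and Atp5a1 by 0.77, and the small Atp5j2 falling by 1.26. Atp5k rose from 0, 0 and 0 to 0, 13.9 and 23.1 FPKM (no longer called without GcKO replicates 2 and 3 and WT replicates 4, 5 and 6, with limma adjusted p = 0.0758 to 0.12), with GcKO replicate 1 at 0 like the WT libraries. Of complex III, Uqcrb and Uqcrh fell by 1.25 and 1.03. Rpl32 fell by 1.18 and Rpl35 by 1.11, and of the mitochondrial ribosome Mrpl42 and Mrpl35 fell by 1.44 each and Mrps33 by 1.28. Mrps15 (1.16, no longer called without GcKO replicates 1 and 3 and WT replicate 5, with limma adjusted p = 0.0725 to 0.0876) and Mrps30 (1.27, no longer called without GcKO replicates 1, 2 and 3 and WT replicates 5 and 6, with limma adjusted p = 0.0766 to 0.15) rose. Ribosomal proteins have many processed copies in the genome, so reads may be shared. Of 31 translation initiation transcripts 6 fell and 5 rose, and none of the 12 eIF3 transcripts was called. Eif2b1 fell from 799.6, 759 and 723 to 195, 293 and 403 FPKM and Eif2b2 rose from 10.8, 8.11 and 5.78 to 18.6, 17.5 and 17.6 FPKM (limma adjusted p = 5.4e-04 and 0.0062), and the eIF2 subunits Eif2s1 and Eif2s2 fell by 0.82 and 0.96. On the same-sum scale the sign turned for Uqcrh (0.0106), Eif2s1 (0.20) and Eif2s2 (0.0738). The quantile-normalized fit no longer called Sdha, Mrps15, Mrps30, Sdhd, Atp5j2, Uqcrb, Uqcrh, Rpl32, Rpl35, Mrps33, Eif2s1 and Eif2s2 (limma adjusted p = 0.0625 to 0.46).

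**Figure D3:**
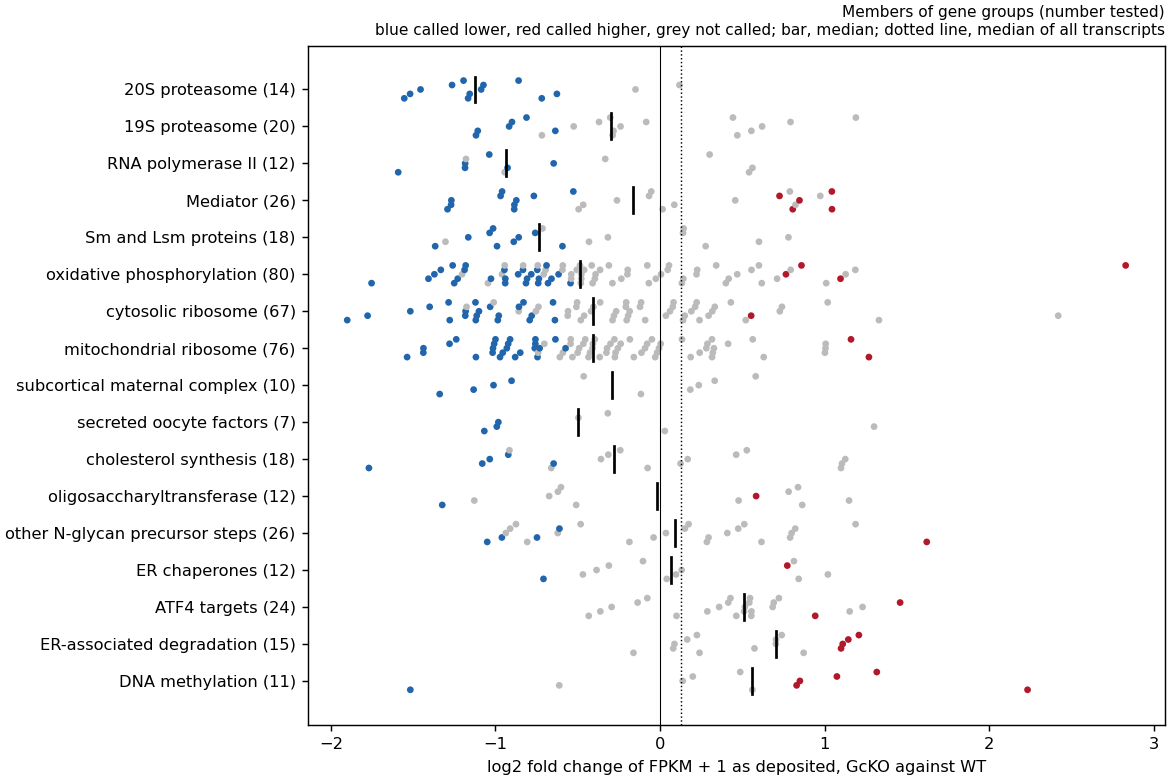
Log2 fold change of GcKO against WT, on log2(FPKM + 1) as deposited, of each tested member of 17 gene groups, with the number tested in parentheses. Blue points were called lower and red points higher by limma, black bars are group medians and the dotted line is the median of all transcripts (0.13). The 20S proteasome has the lowest median (-1.12; -0.10 on the same-sum scale) and ER-associated degradation the highest (0.70; 1.34).

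Set against the granulosa cell knockout, which carries the same floxed allele, 630 transcripts (6.01%) were called in GcKO oocytes, 546 (5.2%) lower and 84 (0.801%) higher. The split turned with the scaling, to 125 lower and 2580 higher on the same-sum scale and 171 lower and 99 higher after quantile normalization. The comparisons of this paragraph and the next use the GcKO libraries of the comparison with WT. With only these 6 libraries in the fit, none was called, and the count was 301 to 363 without GcKO replicate 1 or 2 or AmcKO replicate 4 or 5. Mfhas1, a leucine-rich repeat GTPase gene of innate immune signaling, was higher in GcKO than in each other group. It was at 0, 1.15 and 0.992 FPKM in WT, 0.487, 0.459 and 0.524 FPKM in AmcKO, 0.352, 0.324 and 0.785 FPKM in MUT and 5.96, 5.27 and 6.99 FPKM in GcKO libraries. GcKO exceeded AmcKO (log2 difference 2.24, SE 0.33, limma adjusted p = 0.0019), MUT (log2 difference 2.26, SE 0.33, limma adjusted p = 0.0110, no longer called without GcKO replicate 3 and MUT replicates 1 and 2, with limma adjusted p = 0.0593 to 0.0895) and WT (log2 fold change 2.12, SE 0.33, limma adjusted p = 6.3e-04). No value of the other 9 libraries reached the lowest GcKO value. Its neighbor Eri1, a 3′ exonuclease gene on the same stretch of chromosome 8 (chromosome 8, 35465253 to 35496196, Mfhas1 chromosome 8, 35587798 to 35679449), was at 3.91, 2.58 and 0.9504 FPKM in WT, 1.45, 1.17 and 4.86 FPKM in AmcKO and 11.9, 15.6 and 12.3 FPKM in GcKO (log2 difference 2.17, SE 0.40, limma adjusted p = 0.0069). Of 4 transcripts tested within 1 Mb of Mfhas1, a window placed after its values were seen, Mfhas1 itself, Eri1 and Tnks (0.253, 0.857 and 1.96 to 6.01, 4.35 and 3.54 FPKM) were called higher against WT, as were 9.7% of all transcripts. Trim28 was at 1.67, 0.946 and 3.24 FPKM in AmcKO (log2 difference 1.92, SE 0.32, limma adjusted p = 0.0037) and at 6.27, 8.24 and 7.28 FPKM in MUT, where GcKO did not differ beyond the spread (limma adjusted p = 0.96). Asb17os and Hist2h2bb were listed at 0 in AmcKO and at 2.84, 5.49 and 4.599 and 5.75, 5.56 and 9.32 FPKM in GcKO (limma adjusted p = 0.0093 and 0.0290). Of these, Asb17os was no longer called without GcKO replicate 2, with limma adjusted p = 0.0525, and Hist2h2bb was no longer called once any 1 of the 6 libraries was left out, limma adjusted p = 0.0622 to 0.11. The largest falls against AmcKO were Rpgrip1 (32.8, 65.3 and 38.8 FPKM in AmcKO, limma adjusted p = 0.0020), Vmn1r157 (89.4, 139.5 and 79.7 FPKM, limma adjusted p = 3.4e-04), Vmn1r139, Gm6902 and Hist3h2ba (Hist3h2ba no longer called without GcKO replicates 1 and 2 and AmcKO replicates 4, 5 and 6, with limma adjusted p = 0.0795 to 0.18). Among the transcripts described above, Paip1 (1686, 1655 and 1288 FPKM in AmcKO, limma adjusted p = 4.8e-05), Canx (468, 450.1 and 402 FPKM, limma adjusted p = 4.8e-05) and Dppa3 (21716, 29514 and 20022 FPKM, limma adjusted p = 0.0019) were lower in GcKO than in AmcKO oocytes, while Oosp1, Ooep and Sc5d did not pass (limma adjusted p = 0.26, 0.0533 and 0.12).

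Against the D166G point mutant, which has the altered enzyme in every cell, 21 transcripts (0.2%) were called, 13 (0.124%) lower and 8 (0.0763%) higher in GcKO. With replicate number as a block none was called, and with only these 6 libraries 1. Without GcKO replicate 3, or any 1 MUT library, 6 to 10 were called. Fgf21, a secreted stress hormone induced by ATF4, had the largest difference, at 73.6, 49.3 and 77.2 FPKM in MUT and 1.89, 0 and 0 FPKM in GcKO libraries (log2 difference -5.54, SE 0.39, limma adjusted p = 1.3e-05), with 0 in the 3 WT libraries. Spesp1 was listed at 0 in MUT, at 10.2, 8.59 and 15.9 FPKM in AmcKO and at 8.66, 10.1 and 5.83 FPKM in GcKO (limma adjusted p = 3.2e-04 against MUT and 0.46 against AmcKO). Trip4, a transcriptional coactivator gene, was at 4.93, 4.096 and 6.31 FPKM in MUT, 14.98, 25.7 and 19.5 FPKM in AmcKO and 24.04, 17.2 and 18.8 FPKM in GcKO (log2 difference 1.79, SE 0.26, limma adjusted p = 0.0106, no longer called without GcKO replicates 1 and 3 and MUT replicates 1 and 2, with limma adjusted p = 0.0534 to 0.0895), against 2.88, 2.08 and 3.31 FPKM in WT. Both thus stood high in the 2 groups with the floxed allele. Myo10, an unconventional myosin gene, went the other way, at 9.16, 14.6 and 8.32 FPKM in WT, 10.5, 10.9 and 9.598 FPKM in MUT, 0.253, 1.55 and 1.63 FPKM in AmcKO and 0.9798, 0.533 and 0.887 FPKM in GcKO (log2 difference -2.66, SE 0.33, limma adjusted p = 0.0030). Gm19299 had the same order, at 13.4, 12.1 and 19.5 FPKM in WT, 0 in the AmcKO libraries, 0, 1.03 and 1.72 FPKM in GcKO and 19.2, 14.4 and 20.9 FPKM in MUT (limma adjusted p = 5.7e-04). Efna1, an ephrin ligand gene, was at 23.2, 25.1 and 19.9 FPKM in MUT and 5.99, 7.15 and 3.405 FPKM in GcKO (log2 difference -1.91, SE 0.27, limma adjusted p = 0.0106, no longer called without GcKO replicate 3 and MUT replicates 1 and 2, with limma adjusted p = 0.0565 to 0.0892), and Xlr3c at 129.996, 134 and 128 and 31.1, 41.03 and 53.9 FPKM (log2 difference -1.65, SE 0.19, limma adjusted p = 0.0016). Ugcg, which makes glucosylceramide, was at 5.001, 3.85 and 4.19 FPKM in MUT and 14.3, 11.8 and 13.3 FPKM in GcKO (limma adjusted p = 0.0348, no longer called once any 1 of the 6 libraries was left out, limma adjusted p = 0.0834 to 0.18), and Gm7271 at 1.32, 1.26 and 1.5003 and 8.201, 12.2 and 7.41 FPKM (limma adjusted p = 0.0040). In both, the WT libraries were at the GcKO level (11.8, 14.9 and 12.3 FPKM and 8.55, 9.65 and 8.21 FPKM).

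**Figure D4:**
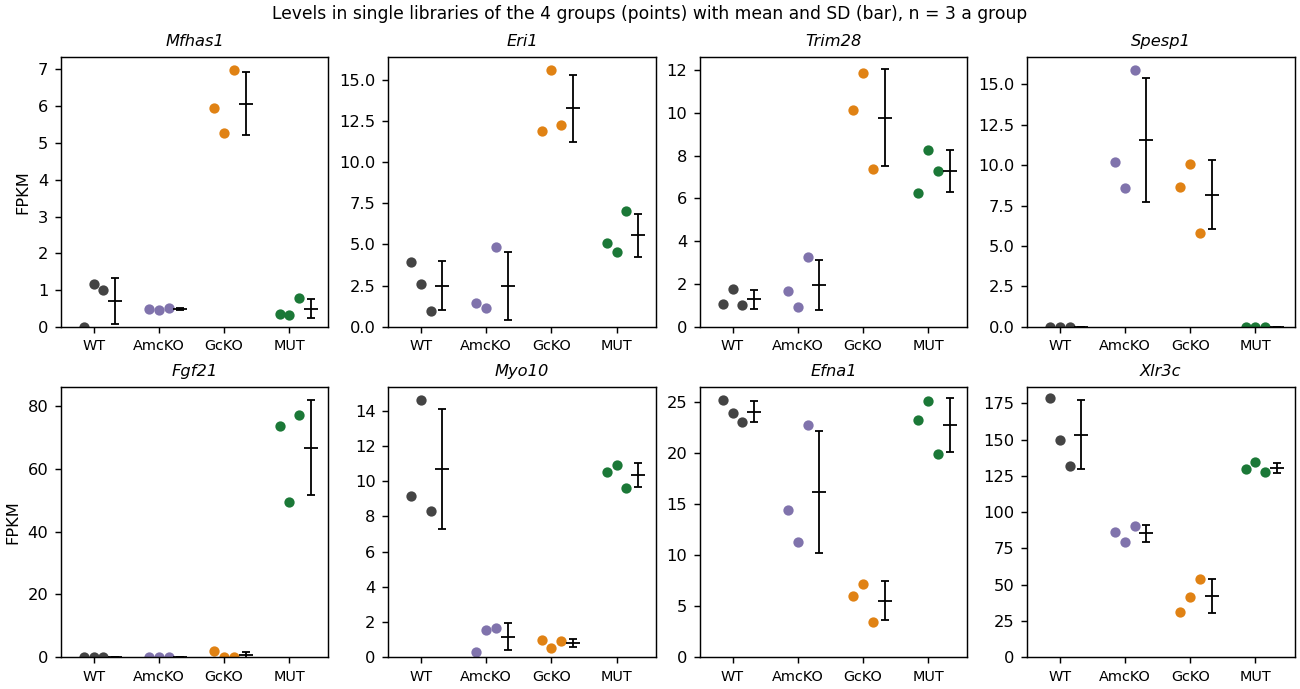
Level in FPKM (vertical axes from 0, a scale for each transcript) of 8 transcripts in the 3 libraries of each of the WT, AmcKO, GcKO and MUT groups, each point a library, with the mean and SD. Mfhas1 is high in GcKO alone (5.27 to 6.99 FPKM), Spesp1 in AmcKO and GcKO, and Fgf21 in MUT (49.3 to 77.2 FPKM). Efna1 and Xlr3c are lowest in GcKO.

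The transcripts around Dpagt1 on chromosome 9, where the floxed allele sits, were counted apart. Within 5 Mb of the start of Dpagt1, 10 of 40 transcripts (25.0%) were called, 6 higher and 4 lower. Within 25 Mb 24.3% of 255 were called, 26 higher and 36 lower, and on the whole chromosome 147 of 578 (25.4%). The share was 22.2% of all transcripts and 18.2 to 27.1% over chromosomes with at least 100 tested transcripts. The risen ones near Dpagt1, named here after their values were seen, included Fxyd6, a regulator of the sodium pump (0, 3.47 and 0 FPKM in WT and 11.8, 21.3 and 6.56 FPKM in GcKO), and Ift46, of transport in cilia (11.7, 22.4 and 12.3 FPKM in WT, 38.9, 41.002 and 41.2 FPKM in AmcKO, 17.3, 15.998 and 18.8 FPKM in MUT and 27.1, 30.8 and 38.97 FPKM in GcKO, limma adjusted p = 0.0055). The others that rose were Usp28, Rnf214, Usp2 and Rps25 (1.41, 1.42, 1.08 and 0.55). Usp2 was no longer called without GcKO replicates 1 and 2 and WT replicates 5 and 6, with limma adjusted p = 0.0716 to 0.17. 3110039I08Rik and D630033O11Rik fell (-2.16 and -1.22), as did Hspa8 (-0.87, no longer called without GcKO replicates 1 and 2 and WT replicates 4, 5 and 6, with limma adjusted p = 0.0530 to 0.12). The other fall was that of Sc5d, at 56.5, 63.4 and 46.1 FPKM in AmcKO and 88.7, 68.7 and 77.8 FPKM in MUT.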

How the data were processed

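The libraries were GV oocyte RNA amplified by Smart-seq2, 3 a group. The FPKM values were deposited by the authors as 1 table of 24255 transcripts for 12 libraries, which the study made with TopHat2 2.0.13 and Cufflinks 2.2.1 on mm10 (Cuffnorm and Cuffdiff are named too). FPKM divides fragments by transcript length and by a factor for the library, and how this factor was set is not stated. The deposited FPKM sums ran from 482314 to 1226005, whereas the median-of-ratios factors lay between 0.93 and 1.06. The values are thus not on a common total. No counts were used, and precision is bounded by the relative depths in the report. The table's columns of fold changes, p-values and q-values between groups were not used.

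The 10491 transcripts with at least 1 FPKM in at least 1 GcKO or WT library were tested on log2(FPKM + 1), a scale that understates changes of low transcripts. limma 3.58.1 (R 4.3.3, variance trend) was fitted to all 12 libraries in 4 groups with 8 residual degrees of freedom, and p-values were adjusted by Benjamini and Hochberg over all 10491, with calls at 0.05. Percentages of a WT mean were taken from FPKM, and other arithmetic used Python 3.11.15. Groups came from the labels. GcKO was also set against AmcKO and MUT. On simulated data with 200 changed transcripts of 10491 for GcKO against WT, 34 of 100 changes of 2-fold and 80 of 100 of 4-fold were recovered, none in the wrong direction, with 10 false calls. These data had as many rises as falls, and no difference in scaling or depth between the groups. They cannot show how many calls or directions of the real libraries depend on the scaling.

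The members and gene lists were chosen with earlier results of these data known. Named were Dpagt1, the zona pellucida genes, genes the study names, the 12 largest rises and falls without overlap of the groups, the 10 largest of each at a mean of at least 100 FPKM, up to 5 called members of a list, its most abundant member, members of small groups, and the 5 largest changes of the other comparisons. A few transcripts under this rule are not reported here. Alternatives were other pseudocounts, filters, scalings, corrections for length and GC content, and leaving out each library. Chromosome positions are those of the table, 1-based on mm10 (GRCm38). Promoter sequences are RefSeq windows of GRCm38.p6.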

Additional observations from a re-analysis of the deposited data

How the results depend on the processing

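None of the 250 named transcripts tested turned to a called opposite direction, or from a call to the opposite sign, with a pseudocount of 0.1, without a filter, with median-of-ratios scaling, with corrections for length or GC content, without the variance trend, with only the 6 libraries and without any 1 library, nor did any of the 215 that had a mean of at least 5 FPKM with that filter, which left 35 out. Of the 250, 16 to 49 lost their call without 1 library. The count for GcKO against WT stayed within 1.5 times of 2330 in these settings, except without GcKO replicate 1, but with only the 6 libraries the higher calls fell from 1018 to 504. It was 1388 with a change over 2-fold, 1174 at an adjusted p under 0.01, 1450 after quantile normalization, 5064 with equal sums and 1417 to 2349 without 1 library. For GcKO against AmcKO the counts were 264, 218, 270 and 2705 in the same order, 237 without the variance trend, 0 by limma with only the 6 libraries (1979 at an unadjusted p under 0.05) and 301 to 778 without 1 library. For GcKO against MUT they were 6 at an adjusted p under 0.01, 57 after quantile normalization, 65 with equal sums, 12 without the trend, 1 with only the 6 libraries and 6 to 18 without 1 library. The cause was not tested. Values of 1 or a few fragments, which weigh more in the WT libraries, limit what can be said of low transcripts.

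No paired analysis was possible for GcKO against WT because the labels give the WT libraries the numbers 4 to 6 and the knockout 1 to 3. GcKO and MUT share the numbers 1 to 3, but the labels do not say that same-numbered libraries were paired. Deviations of same-numbered libraries from their group means correlated at -0.02, 0.04 and -0.04 across transcripts. For different numbers the correlations ran from -0.06 to 0.07. With 3 libraries a group, these values cannot show whether same-numbered libraries were handled together. With the replicate number as a block limma called 0 transcripts for GcKO against MUT, 735 at an unadjusted p under 0.05.

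Scaled to the same FPKM sum, the sign of the log2 fold change turned for 50 of 250 named transcripts, Alg13 (0.42), Dpm2 (0.28), Ostc (0.52), Ddit3 (0.0764), Manf (0.33), Hmgcs1 (0.39), Insig1 (0.000577), Msmo1 (0.0688), Fdft1 (0.72), Zp1 (0.86), Zp2 (0.29), Zp3 (0.78), Izumo1r (0.31), Gdf9 (0.54), Oosp1 (0.0567), Oosp2 (0.0471), Khdc3 (0.0253), Nlrp5 (0.57), Nlrp9a (0.13), Zbed3 (0.92), H1foo (0.0115), Gtf2b (0.29), Zar1l (0.0137), Btg4 (0.0232), Cnot7 (0.15), Ccnb1 (0.21), Ccnb2 (0.99), Mos (0.69), Esco2 (0.0616), Aurkc (0.17), Anapc11 (0.16), Anapc15 (0.27), Anapc16 (0.18), Orc4 (0.43), Orc5 (0.23), Gins1 (0.25), Sar1b (0.0459), Pigc (0.35), Mdm4 (0.0208), Psmb6 (0.31), Psmc6 (0.11), Psmd7 (0.12), Uqcrh (0.0106), Snrpe (0.0239), Lsm3 (0.00346), Eif2s1 (0.20), Eif2s2 (0.0738), Bhlhe41 (0.34), Hspa8 (0.16) and Rpa3 (0.30). After quantile normalization it turned for 19, Zp3 (0.66), Izumo1r (0.0485), Gdf9 (0.78), Oosp1 (0.34), Oosp2 (0.29), Oosp3 (0.0238), Nlrp14 (0.13), Zbed3 (1.06), H1foo (0.28), Gtf2b (0.14), Btg4 (0.19), Cnot7 (0.0698), Ccnb1 (0.0966), Cks2 (0.0113), Birc5 (0.13), Anapc15 (0.0303), Orc5 (0.12), Lsm3 (0.15) and Rpa3 (0.21). Of these, 13 and 4 passed in the opposite direction. Equal sums raise GcKO values against WT, since the deposited sums were lower in GcKO, and the median of all transcripts moved to 0.79. Against MUT it moved to 0.04. Which scaling is nearer to the amounts in the oocytes was not tested.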
